A study of Mus musculus with 12 samples.

Results

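The genes described here are 37 members of the Toll-like receptor and NF-kB pathway, followed through open chromatin measured by ATAC-seq, which tags accessible DNA with a transposase and sequences the tagged fragments. Every peak that the authors' annotation assigned to 1 of the 37 gene names was taken. That gave 368 of 91770 peaks in microglia, 177 of 107627 in NeuN+ nuclei and 141 of 82577 in Olig2+ nuclei, or 686 of 281974 in all. The rule that picks their peaks uses the gene name alone and no measured value. Peaks within 1000 bp of the annotated start site of the gene are called start-site peaks, and the rest distal peaks. A distal peak carries the name of the gene with the nearest start site, which need not be the gene it acts on.

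Toll-like receptors recognise microbial products and molecules released by damaged cells, some at the cell surface and some inside endosomes, the vesicles that feed the lysosome. Adaptor proteins link the receptors to IRAK kinases, TRAF ubiquitin ligases and the TAK1 kinase complex, and these activate the IKK complex. IKK marks the IkB inhibitors for destruction, which lets NF-kB dimers bind DNA. Several targets of NF-kB are its own inhibitors, so the pathway switches itself off. Microglia, the resident macrophages of the brain, carry most of these receptors, and neurons and oligodendrocytes use parts of the same machinery.

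The forebrain of C57BL/6 mice of 4 months was compared between wild-type (WT) animals and animals labelled SgshKO, for a knockout of Sgsh, the gene of the lysosomal sulfohydrolase that helps degrade heparan sulfate; the type of allele is not stated in the labels. Live DAPI-negative CD11b+/CD45low/CX3CR1+ microglia were sorted as cells, whereas PU.1-/OLIG2-/NEUN+ nuclei (mainly neurons) and PU.1-/OLIG2+/NEUN- nuclei (oligodendrocyte lineage) were sorted after light formaldehyde fixation. Each of the 6 groups had 2 libraries, and the labels do not say whether these came from separate animals, so p-values measure the spread between these libraries only. All 3 sorts came from whole forebrain and each library pools many cells, so that more cells with an open site and a more open site per cell cannot be told apart.

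Libraries held 10771659 to 11804222 tags in microglia, 14326703 to 17706971 in NeuN+ nuclei and 15044194 to 19555924 in Olig2+ nuclei. The share of tags inside peaks was 48.7 to 67.4% in microglia, 21.2 to 26.7% in NeuN+ nuclei and 30.9 to 31.8% in Olig2+ nuclei. The median peak held 27 to 39, 17 to 22 and 22 to 30 tags per library. Values are normalized tags, that is, tags in a peak scaled to a library of 10000000 tags. The study used 2 sequencing instruments, and which library ran on which is not stated. All 10 microglial markers checked had a start-site peak in the microglia, all 10 neuronal markers in the NeuN+ nuclei and all 10 oligodendrocyte-lineage markers in the Olig2+ nuclei. At the start site of Sgsh itself, microglia had 184 and 162 normalized tags in WT and 257 and 259.9 in SgshKO (adjusted p = 0.196), NeuN+ nuclei 34.6 and 22.6 against 9.07 and 13.3 (log2 change -1.27; adjusted p = 0.00256) and Olig2+ nuclei 65.9 and 74.2 against 60.9 and 69.1 (adjusted p = 0.653). Accessibility at a start site does not check the loss of the gene product.

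The promoter sequences of the members were looked at first, because the pathway's own output is read at kB sites. Promoters of 300 bases, running from 250 bases before the start site to 50 after, were taken from RefSeq (build GRCm38.p6, the build of the peaks). They were found for 29 of the 37 members; Tlr4, Cd14, Ticam2, Tab1, Ikbkb, Nfkb1, Relb and Nfkbiz were not matched. The 5 printed here lie under microglial start-site peaks: those of Tnip1, Nfkb2, Ticam1 and Rela were called in the comparison of genotypes, and that of Nfkbie came next by p-value. Each is written 5′ to 3′ on the strand of the gene, and capitals mark a match to the kB motif on either strand. Nfkbib also had a called start-site peak, but that peak overlaps its promoter by only 36 bp.
Tnip1 promoter: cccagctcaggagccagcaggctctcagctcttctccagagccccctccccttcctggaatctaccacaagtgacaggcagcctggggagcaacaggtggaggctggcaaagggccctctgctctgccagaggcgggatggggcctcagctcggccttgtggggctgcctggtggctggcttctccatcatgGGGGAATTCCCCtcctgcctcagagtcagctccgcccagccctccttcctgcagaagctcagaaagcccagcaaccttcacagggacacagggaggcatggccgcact
Nfkb2 promoter: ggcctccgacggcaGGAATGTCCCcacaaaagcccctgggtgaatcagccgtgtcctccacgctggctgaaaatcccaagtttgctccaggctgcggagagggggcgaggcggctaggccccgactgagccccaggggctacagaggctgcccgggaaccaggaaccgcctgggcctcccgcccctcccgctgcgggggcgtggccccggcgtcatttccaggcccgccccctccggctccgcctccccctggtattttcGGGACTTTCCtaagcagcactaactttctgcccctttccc
Nfkbie promoter: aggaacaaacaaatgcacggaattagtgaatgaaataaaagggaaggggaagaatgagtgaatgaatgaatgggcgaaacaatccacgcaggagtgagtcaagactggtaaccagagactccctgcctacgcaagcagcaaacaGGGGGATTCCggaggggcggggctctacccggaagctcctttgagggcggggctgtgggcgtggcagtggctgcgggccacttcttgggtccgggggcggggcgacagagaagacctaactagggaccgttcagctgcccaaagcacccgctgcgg
Ticam1 promoter: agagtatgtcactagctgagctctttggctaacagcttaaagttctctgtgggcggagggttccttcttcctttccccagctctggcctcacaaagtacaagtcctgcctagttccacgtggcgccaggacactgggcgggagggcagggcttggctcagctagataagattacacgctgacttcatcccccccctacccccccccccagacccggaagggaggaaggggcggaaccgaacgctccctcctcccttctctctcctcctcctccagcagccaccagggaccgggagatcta
Rela promoter: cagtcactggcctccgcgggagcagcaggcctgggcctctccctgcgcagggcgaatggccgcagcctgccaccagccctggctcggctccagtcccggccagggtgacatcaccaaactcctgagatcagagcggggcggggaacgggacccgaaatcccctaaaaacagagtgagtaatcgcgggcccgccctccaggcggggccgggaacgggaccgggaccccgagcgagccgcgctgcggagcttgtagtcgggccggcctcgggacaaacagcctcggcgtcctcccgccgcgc

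The Tnip1 promoter (chr11:54962891-54963190, minus strand) holds 3 overlapping kB matches starting 58, 57 and 56 bases before the start site, all inside its peak. Tnip1 encodes an adaptor that helps the A20 enzyme remove ubiquitin chains. The Nfkb2 promoter (chr19:46305445-46305744, plus strand) holds a match 10 bases after the start site, inside its peak, and another 236 bases before it, outside the peak. Nfkbie (chr17:45555450-45555749, plus strand), which encodes the inhibitor IkB-epsilon, has a match 106 bases before the start site. No letters of the motif were found in the windows of Ticam1 (chr17:56276718-56277017, minus strand) and Rela (chr19:5637291-5637590, plus strand). The Ticam1 window holds an E-box, CACGTG, which is found in 7.15% of all promoters. It also holds an ETS match, CCGGAAG, and 3 GC boxes, GGGCGG.

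A kB match was present in 15 of the 39 promoters of the 29 members, or 38.5%, against 8.46% of all 32851 promoters in the table. The genes were Irak1, Map3k7, Nfkb2, Nfkbia, Nfkbie, Nlrp3, Rel, Tlr2, Tlr3, Tnfaip3, Tnip1 and Traf3, which include inhibitors (Nfkbia, Nfkbie, Tnfaip3, Tnip1), subunits (Nfkb2, Rel) and receptors (Tlr2, Tlr3). Some genes have several promoters that overlap, so a site can count more than once. The PU.1 motif, GAGGAAGT on either strand, was in 5 of 39 member promoters (12.8%; Pycard, Rel, Tlr1, Tlr9, Traf3) against 3.20% of all. The GC box, GGGCGG, was in 26 of 39 (66.7%) against 35.7% of all. These counts describe letters only, and base composition differs between promoters.

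Start-site peaks of all the receptors, and of a few genes of other roles, were listed in microglia alone. Microglia had start-site peaks at 35 of the 37 genes, NeuN+ nuclei at 23 and Olig2+ nuclei at 22. The exceptions in microglia were Irak4, an IRAK kinase, and Casp1, the inflammasome protease, and Casp1 had no peak of any kind in the 3 tables. All 8 receptors, Tlr1, Tlr2, Tlr3, Tlr4, Tlr5, Tlr6, Tlr9 and the co-receptor Cd14, had a start-site peak in microglia and none in either kind of nuclei. The adaptors Myd88 and Ticam2, the feedback gene Tnip1 and the inflammasome sensor Nlrp3 shared that pattern. All 5 NF-kB subunits and both IKK genes (Ikbkb and Chuk) had start-site peaks in all 3 sorts, as did 6 of the 8 kinases and ligases and 5 of the 6 inhibitors with a microglial start-site peak.

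Of the 35 member genes with a microglial start-site peak, 12 (34.3%) had none in either kind of nuclei, against 12.2% (1599 of 13128) of all genes with a microglial start-site peak. Among the members 62.9% also had one in NeuN+ nuclei and 60.0% in Olig2+ nuclei, against 84.3% and 79.7% of all such genes. The 3 peak lists were called separately and the microglial libraries hold more of their tags in peaks, so absence from a list is not absence of accessibility. A gene also counts as without a peak where the peak there carries another name. Irak1 had no Olig2+ peak named for it. Yet an Olig2+ peak with 39.4 and 40.4 normalized tags in WT matched its microglial start-site peak by position.

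**Figure D1:**
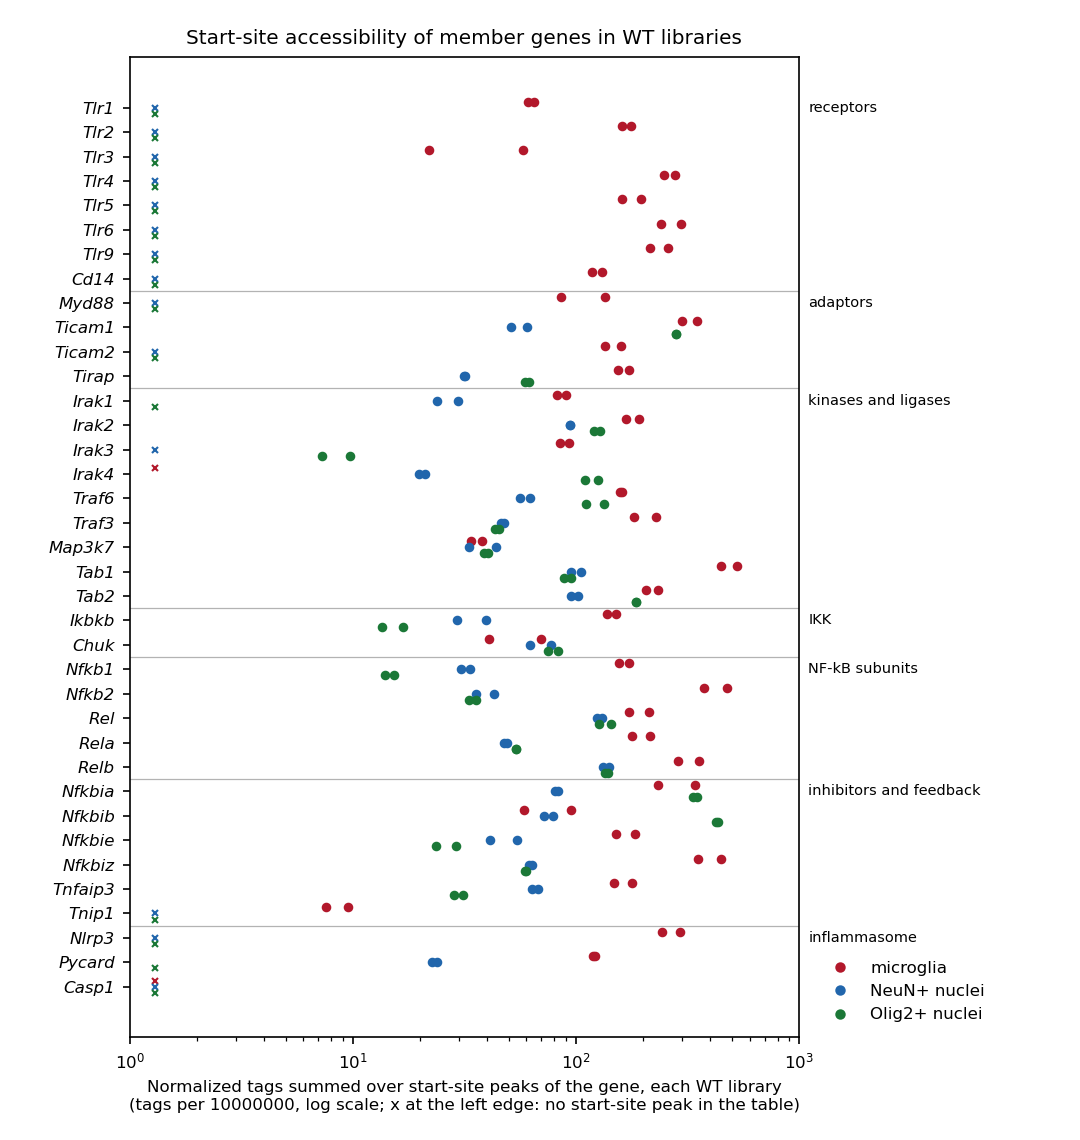
Normalized tags summed over the start-site peaks of each member gene in each WT library, on a log axis, for microglia, NeuN+ nuclei and Olig2+ nuclei. Genes are ordered by role and a cross at the left edge stands for no start-site peak named for the gene. The 8 receptors have points in microglia only, while all 5 NF-kB subunits have points in all 3 sorts.

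In WT microglia the peak nearest the start site of each receptor reached from 16.4 and 16.1 normalized tags at Tlr5, which recognises flagellin, to 277 and 249 at Tlr4, which recognises lipopolysaccharide with the help of Cd14. Tlr9, an endosomal receptor for DNA, had 182 and 143, and Tlr2, a surface receptor for lipoproteins, 145 and 134. Levels in different sorts were not tested, because cells and fixed nuclei were prepared differently and the peaks were drawn separately. The inhibitor Nfkbib was higher in Olig2+ nuclei than in microglia, at 426 and 434 in a peak 26 bp before its start site against 95.1 and 58.5 in the microglial peak. Those peaks share 158 bp, which is 65.3% of the microglial peak, and both are annotated as the promoter of Sirt2.

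Distal peaks made up 297 of the 368 microglial member peaks. The median member peak lay 12121 bp from its start site in microglia, 9547 bp in NeuN+ nuclei and 5499 bp in Olig2+ nuclei. In microglia 24 member peaks lay over 100 kb away (the farthest at 258021 bp), 31 lay inside another gene and 15 had another gene's start site within 1 kb. Nfkbiz, which encodes a nuclear IkB protein, had the most microglial peaks, 32, followed by Tab2 and Nfkb1 with 29 each and Tnfaip3 with 22. Irak1 and Tirap had 1 each. The 3 strongest distal peaks by mean level lay 46709 bp before Tnfaip3 (378 and 292 in WT, 481 and 348 in SgshKO), 11390 bp after the start site of Rela (356 and 290 in WT, 489 and 321 in SgshKO) and 21548 bp before Tlr2 (298 and 243 in WT, 429 and 341 in SgshKO). None of these 3 passed the test (log2 changes of 0.30, 0.30 and 0.50, adjusted p of 0.536, 0.539 and 0.252).

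In microglia 21 of the 368 member peaks passed the test of SgshKO against WT, 17 of them higher and 4 lower in SgshKO. They belonged to 14 genes and included a group of distal peaks around Tlr2, the start-site peaks of Ticam1, Rela, Relb, Nfkb2, Nfkbib and Tnip1, and peaks near Tnfaip3 and Nfkbia. The share, 5.71%, was below the 7.37% of all microglial peaks that passed (5.05% higher and 2.33% lower). The median log2 change was 0.00 over member peaks and -0.08 over all peaks. Among start-site peaks 6 of 71 members were called, all higher (8.45%, against 9.8% of all start-site peaks, 8.59% higher and 1.2% lower). Among distal peaks 15 of 297 were called, 11 higher and 4 lower (5.05%, against 6.52% of all distal peaks, 3.8% higher and 2.72% lower). As a set the members did not stand apart from the rest of the microglial table.

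A peak counted as called when its adjusted p in limma was under 0.05 after Benjamini-Hochberg adjustment over the whole table. The peak list merges peaks found in either genotype, so a weak peak can be in the table only because it was strong in 1 of them. All 21 calls were lost without WT replicate 2 (0 called by limma, 24 member peaks at an unadjusted p under 0.05), and 4 of the 21 were called without WT replicate 1. Without SgshKO replicate 1 or 2, 64 (23 higher and 41 lower) and 53 (42 higher and 11 lower) were called. The balance depended on the scaling: with libraries scaled to tags in peaks it was 19 higher and 24 lower, and the median log2 change of all microglial peaks moved from -0.08 to -0.28.

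**Figure D2:**
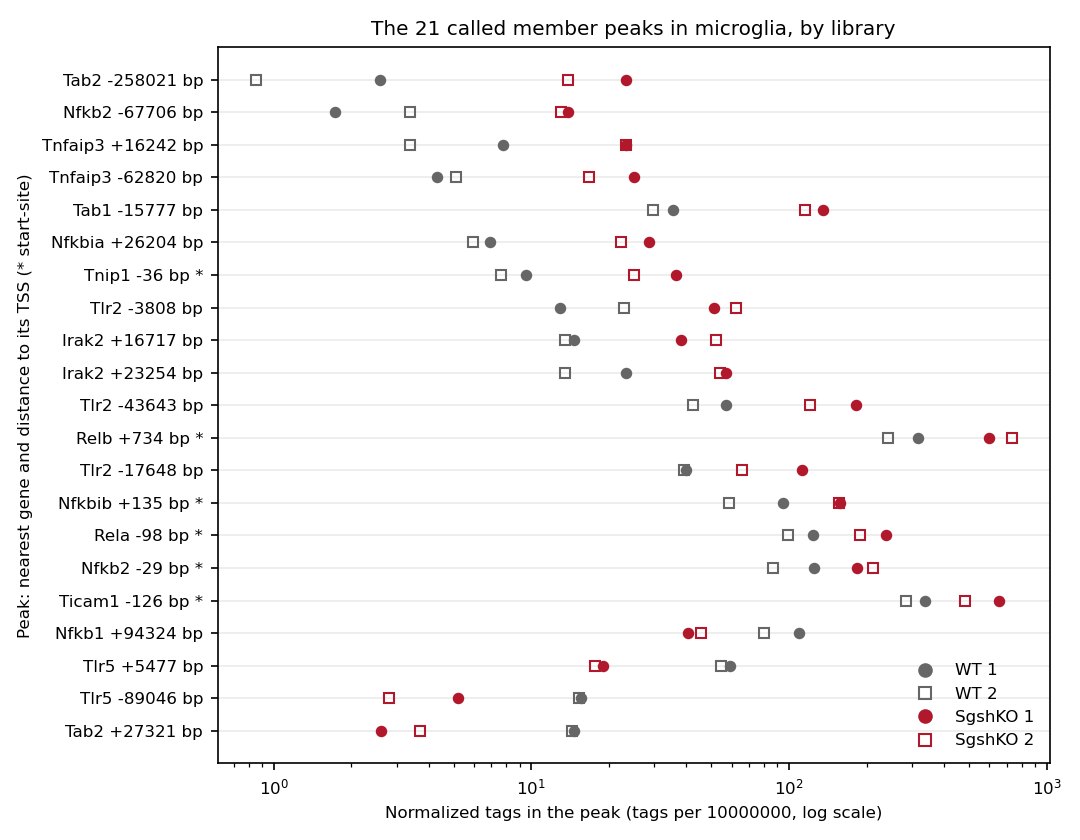
Normalized tags in each of the 4 microglial libraries at the 21 member peaks that passed the test, on a log axis; grey is WT and red SgshKO, circles are replicate 1 and open squares replicate 2, and an asterisk marks a start-site peak. At all 21 peaks the SgshKO points do not overlap the WT points, which held for 6754 of all 6765 called microglial peaks.

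Among the receptors 5 of 72 microglial peaks were called, 3 higher and 2 lower, and all were distal (6.94%, against 7.37% of all microglial peaks). The 3 higher peaks lay upstream of Tlr2. The peak 43643 bp before its start site, at chr3:83885137-83885365, had 57.0 and 42.4 normalized tags in WT and 182 and 121 in SgshKO. Both SgshKO libraries were above both WT libraries, 3.04-fold (log2 change 1.57 ± 0.32, SE; adjusted p = 0.00152). The peak 3808 bp before the start site (chr3:83845305-83845527) had 13.0 and 22.9 in WT and 51.1 and 62.2 in SgshKO, 3.16-fold (1.65 ± 0.40; adjusted p = 0.00719). The peak 17648 bp before it (chr3:83859146-83859367) had 39.8 and 39.0 in WT against 113 and 65.9, 2.27-fold (1.11 ± 0.35; adjusted p = 0.0416). All 3 are annotated as intergenic, and the start-site peak of Tlr2 itself had 145 and 134 in WT and 153 and 161 in SgshKO (0.17; adjusted p = 0.78).

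The 2 lower receptor peaks belonged to Tlr5. A peak in its intron 1 (chr1:182960151-182960380, 5477 bp after the start site) had 58.8 and 54.2 in WT and 19.1 and 17.6 in SgshKO. SgshKO was at 0.325 of WT there, with no overlap of the groups (log2 change -1.57 ± 0.39; adjusted p = 0.00819). The other lay 89046 bp before Tlr5, in intron 5 of Susd4 (chr1:182865640-182865844), with 15.6 and 15.2 in WT and 5.19 and 2.79 in SgshKO (-1.76 ± 0.51; adjusted p = 0.0285).

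None of the 15 start-site peaks of receptors was called by limma, edgeR or DESeq2, or had an unadjusted p under 0.05, and their log2 changes ran from -0.85 to 0.25. Of all microglial start-site peaks limma called 9.8%. Tlr1, the partner of TLR2 for triacylated lipoproteins, had 34.6 and 22.9 in WT and 11.2 and 20.4 in SgshKO (-0.85; adjusted p = 0.259). Tlr4 had 277 and 249 against 376 and 259.9 (0.25; adjusted p = 0.629), with the second SgshKO library close to WT. Tlr6, the partner of TLR2 for diacylated lipoproteins, had 36.3 and 34.7 against 32.0 and 36.2, and the groups overlapped. The groups also overlapped at Tlr3, which senses double-stranded RNA (57.9 and 22.03 against 60.6 and 25.1), at Tlr9 (182 and 143 against 159 and 194) and at Cd14 (83.0 and 77.1 against 90.0 and 68.7). Tlr5 had 16.4 and 16.1 against 9.52 and 11.1 (-0.61; adjusted p = 0.476), and its strongest start-site peak, 934 bp upstream, had 143 and 122 against 132 and 81.7.

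Of the adaptors, 1 of 13 microglial peaks was called (7.69%, against 7.37% of all microglial peaks). Ticam1 encodes TRIF, the adaptor of TLR3 and of endosomal TLR4. Its start-site peak (chr17:56276782-56277005) had 337 and 285 in WT and 654 and 481 in SgshKO, 1.82-fold higher (0.85 ± 0.25; adjusted p = 0.0317). This call was lost under quantile normalization and without SgshKO replicate 1. Myd88, the adaptor of most Toll-like receptors, had 135 and 85.6 in WT and 159 and 85.4 in SgshKO (0.12; adjusted p = 0.873). Ticam2, the bridging adaptor of TRIF, had 159 and 135 against 171 and 136 (0.06; adjusted p = 0.931). Tirap, the bridging adaptor of MYD88, had 173 and 154 against 124 and 101 (-0.54; adjusted p = 0.274), with both SgshKO libraries below WT but no call. They were below at 5967 of all 23806 microglial start-site peaks.

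Of the kinases and ligases 5 of 105 microglial peaks were called, 4 higher and 1 lower, all distal (4.76%, against 7.37% of all microglial peaks). A peak 15777 bp before Tab1, a subunit of the TAK1 complex, had the smallest p of all members. It lies in exon 4 of Syngr1, in the 3′ UTR (chr15:80117257-80117497). It had 35.4 and 29.6 in WT and 136 and 115 in SgshKO, 3.86-fold (1.92 ± 0.33; adjusted p = 0.000198), while the start-site peak of Tab1 had 148 and 141 against 120.3 and 149.

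In Irak2, a kinase that sustains signalling from MYD88, 2 peaks of intron 2 were higher. The peak at chr6:113661587-113661856 had 23.3 and 13.6 in WT and 57.1 and 53.9 in SgshKO, 3.01-fold (1.59 ± 0.40; adjusted p = 0.00961). The peak at chr6:113655068-113655300 had 14.7 and 13.6 against 38.1 and 52.0, 3.19-fold (1.59 ± 0.41; adjusted p = 0.0125). At its start site the 4 libraries held 192, 167, 207 and 158, so the groups overlapped (0.01; adjusted p = 0.986). Tab2, another TAK1 subunit, had a lower peak in intron 1 (chr10:7925643-7925846), with 14.7 and 14.4 against 2.60 and 3.71 (-1.92 ± 0.52; adjusted p = 0.0173). Its other called peak, 258021 bp away in intron 7 of Ust (chr10:8214018-8214270), had 2.59 and 0.85 in WT, which are 3 reads and 1 read, and 23.4 and 13.9 in SgshKO (2.89 ± 0.54; adjusted p = 0.000597).

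None of the 16 start-site peaks of kinases and ligases was called by limma, edgeR or DESeq2, with 1 at an unadjusted p under 0.05 in limma (log2 changes from -0.69 to 0.61). By limma 9.8% of all microglial start-site peaks were called. Traf6, the ligase downstream of MYD88, had 140.0 and 145 in WT and 217 and 177 in SgshKO (0.46; adjusted p = 0.346). Traf3, which links TRIF to the interferon kinases, had 114 and 79.6 against 129.9 and 165 (0.61; adjusted p = 0.225). Map3k7, which encodes TAK1, had 38.0 and 33.9 against 45.0 and 56.6 (0.48; adjusted p = 0.466). At these 3 genes both SgshKO libraries were above WT without a call. They were above at 7 of the 16 start-site peaks of this role and below at 3, against 7786 and 5967 of all 23806 microglial start-site peaks. Among other start-site peaks of this role, Irak1 had 89.9 and 82.2 against 90.0 and 92.8, Tab2 had 132 and 125 against 146 and 161, and Irak3, a brake on IRAK signalling, had 60.5 and 62.7 against 56.3 and 52.9. None of the 8 peaks of the IKK genes was called by limma (1 at an unadjusted p under 0.05) or DESeq2, and edgeR called 1 higher. By limma 7.37% of all microglial peaks were called. Ikbkb had 126 and 107 against 136 and 118, and Chuk 70.0 and 40.7 against 72.7 and 49.2.

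The NF-kB subunits had 5 of 64 microglial peaks called, 4 higher and 1 lower (7.81%, against 7.37% of all microglial peaks). Of their 11 start-site peaks 3 were called, and at 8 of the 11 both SgshKO libraries were above both WT libraries, which held for 7786 of all 23806 microglial start-site peaks, of which 9.8% were called. Relb, the subunit of the alternative NF-kB pathway, had a peak in intron 1, 734 bp after its start site (chr7:19628560-19628848), with 317 and 243 in WT and 599.96 and 732 in SgshKO, 2.38-fold (1.25 ± 0.25; adjusted p = 0.00131). The peak nearest the start site of Relb, 83 bp before it, had 39.8 and 43.2 against 42.4 and 68.7 (0.37; adjusted p = 0.588). Rela, the main activating subunit, had 124 and 99.1 in WT and 237 and 189 in SgshKO at chr19:5637284-5637500, 1.91-fold (0.93 ± 0.29; adjusted p = 0.0394).

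Nfkb2, which encodes the p100 precursor that partners RelB, had 125 and 86.4 in WT and 184 and 213 in SgshKO at its start site (chr19:46305487-46305846), 1.88-fold (0.92 ± 0.29; adjusted p = 0.0449). That call was lost with a pseudocount of 0.5 and under quantile normalization, and another gene, 4833438C02Rik, starts within 1 kb. A weaker peak named for Nfkb2, 67706 bp upstream in intron 3 of Gbf1 (chr19:46236904-46237159), had 1.73 and 3.39 against 13.8 and 13.0 (2.06 ± 0.53; adjusted p = 0.0125). The lower peak lay in intron 17 of Nfkb1 (chr3:135597092-135597354), the gene of p105 and p50. It had 109 and 79.6 in WT and 40.7 and 45.5 in SgshKO, 0.457 of WT (-1.10 ± 0.33; adjusted p = 0.0365). The Nfkb1 start-site peak had 118 and 94.9 against 135 and 135 (0.35; adjusted p = 0.524). Rel, the c-Rel subunit, had 177 and 141 against 177 and 219 (0.32; adjusted p = 0.551).

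The inhibitors and feedback genes had 5 of 92 microglial peaks called, all higher. The count was 15 higher in edgeR, 14 with median-of-ratios scaling, 13 under quantile normalization, 6 with tags in peaks and 3 in DESeq2, with 0 lower in these 5 alternatives. Those settings also moved the share of all microglial peaks called from 7.37% to 15.4, 13.0, 11.4, 15.8 and 5.603%. The number of calls at the inhibitors rose and fell with that share, except with tags in peaks. There the share was the largest, and 35.1% of all microglial calls were higher. The Tnip1 start-site peak (chr11:54962849-54963104), which covers the overlapping kB matches shown above, had 9.51 and 7.62 in WT and 36.4 and 25.1 in SgshKO, 3.59-fold (1.71 ± 0.46; adjusted p = 0.0151). The start-site peak of Nfkbib, which encodes IkB-beta, at chr7:28766389-28766630 had 95.1 and 58.5 against 158 and 156, 2.04-fold (1.06 ± 0.31; adjusted p = 0.0274). It is also annotated as the promoter of Sirt2.

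Tnfaip3, which encodes the ubiquitin-editing enzyme A20, had 2 higher intergenic peaks. The peak 16242 bp after its start site (chr10:18995620-18995823) had 7.78 and 3.39 in WT and 23.4 and 23.2 in SgshKO, 4.17-fold (1.97 ± 0.49; adjusted p = 0.00994). The peak 62820 bp before it (chr10:19078129-19078332) had 4.32 and 5.08 against 25.1 and 16.7, 4.45-fold (1.92 ± 0.50; adjusted p = 0.0122). Both calls were lost in DESeq2. A peak 26204 bp after the start site of Nfkbia, which encodes IkB-alpha, at chr12:55466336-55466550 had 6.91 and 5.93 against 28.6 and 22.3, 3.96-fold (1.83 ± 0.47; adjusted p = 0.0124).

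The start-site peaks of the remaining inhibitors did not pass. Nfkbie had 106 and 126 in WT and 180.1 and 249 in SgshKO (0.86; adjusted p = 0.0578). Nfkbia had 184 and 125 against 246 and 232 (0.65; adjusted p = 0.159), and Tnfaip3 123 and 106 against 152 and 142 (0.36; adjusted p = 0.5). At these 3 genes both SgshKO libraries were above both WT libraries. They were above at 6 of the 17 start-site peaks of this role and below at 2, against 7786 and 5967 of all 23806 microglial start-site peaks. Nfkbiz had 174 and 155 against 219.9 and 249.7 in the peak 41 bp before its start site (0.51; adjusted p = 0.272), and 52.7 and 41.5 against 36.4 and 49.2 in the peak 16 bp before it, where the groups overlapped.

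The inflammasome genes had no called peak among 14 in microglia by limma (3 at an unadjusted p under 0.05) or DESeq2, while edgeR called 2 higher and scaling to tags in peaks gave 2 lower. By limma 7.37% of all microglial peaks were called. Nlrp3, the sensor, had 178 and 149 in WT and 120.3 and 156 in SgshKO (-0.25; adjusted p = 0.663). Pycard, the adaptor ASC, had 88.2 and 99.96 against 70.1 and 52.9 (-0.62; adjusted p = 0.261). Both SgshKO libraries were below WT there, as at 5967 of all 23806 microglial start-site peaks.

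Summed over the 71 start-site member peaks, WT microglia held 7118 and 5956 normalized tags and SgshKO microglia 8255 and 7774, so the groups did not overlap. The same sum was not taken over all microglial start-site peaks, so this is not shown to be particular to the members. Calls were higher in SgshKO at 8.45% of member and 8.59% of all microglial start-site peaks. Over the 297 distal member peaks the sums were 14677 and 12185 against 16569 and 12707, and they overlapped. Start-site sums of the 10 microglial markers overlapped too, at 2427 and 2050 in WT and 2441 and 1879 in SgshKO. Markers of blood myeloid cells had start-site peaks at 3 of 8 genes, and Ccr2, Ly6c2, S100a9 and Plac8 were among those without. The 3 that had peaks summed to 206 and 155 in WT and 244 and 236 in SgshKO, and their part in the member results was not tested. At 11 genes induced by handling stress, 12 of 302 microglial peaks were called higher and 13 lower (3.97% and 4.3%, against 5.05% and 2.33% of all). In NeuN+ nuclei 6 of 171 were higher and 51 lower (3.51% and 29.8%, against 10.2% and 19.6% of all). In Olig2+ nuclei 17 of 127 were higher and 8 lower (13.4% and 6.3%, against 8.17% and 11.7% of all). The part of these genes in the member results was not tested.

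Among 51 other genes of the pathway, 50 had peaks in microglia, and 41 of their 478 peaks were called, 18 higher and 23 lower (8.58%, against 7.37% of all). Of their 91 start-site peaks 8 were higher and 2 lower, near the 8.59% and 1.2% of all start-site peaks. The higher ones were those of Bcl10 and Malt1, which form the CARD adaptor complex, Tnip2, Otulin, Map3k14 (the kinase NIK of the alternative pathway), Ripk2, Tollip and Traf5. At Bcl10 the 2 WT libraries had 172 and 134 and the 2 SgshKO libraries 430.3 and 517 (1.63 ± 0.27; adjusted p = 8.51e-05). Malt1 had 384 and 273 against 713 and 922 (1.32 ± 0.25; adjusted p = 0.000671). The lower ones were at Ikbke and Pik3ap1.

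**Figure D3:**
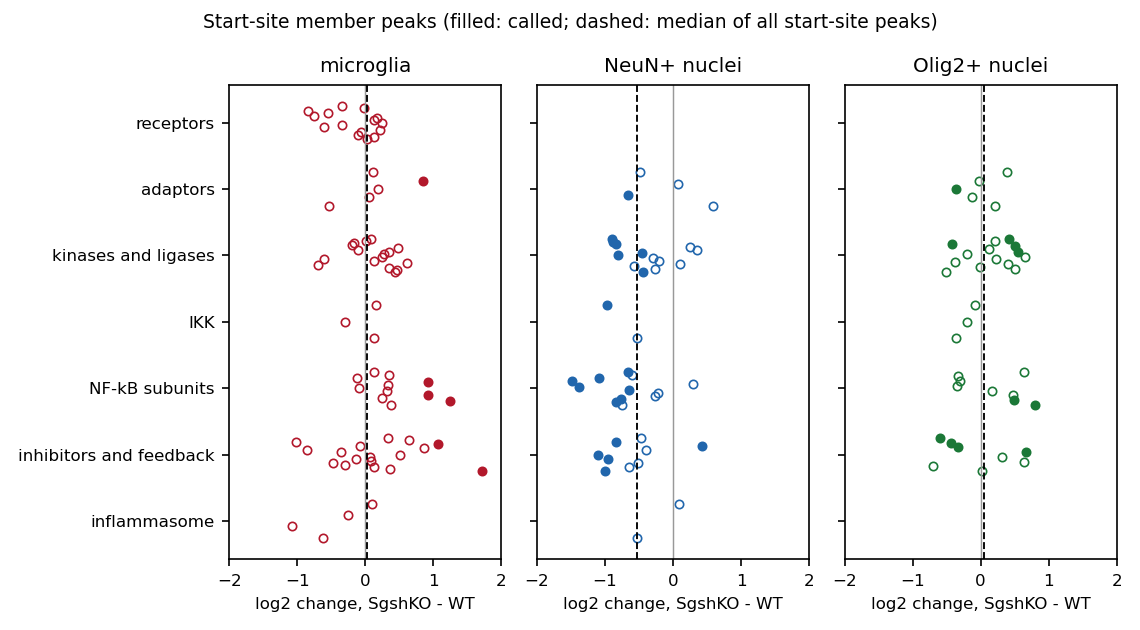
Log2 change of each start-site member peak, SgshKO minus WT, by role in microglia, NeuN+ nuclei and Olig2+ nuclei; filled points passed the test and dashed lines are the medians of all start-site peaks of the sort. In microglia the 6 filled points lie above 0, and in NeuN+ nuclei 19 of the 20 filled points lie below 0.

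In NeuN+ nuclei 53 of 177 member peaks passed, 18 higher and 35 lower in SgshKO. The share, 29.9%, was close to the 29.8% of all NeuN+ peaks (10.2% higher and 19.6% lower). Among start-site peaks 20 of 42 were called, 1 higher and 19 lower (47.6%, against 46.6% of all start-site peaks, 1.74% higher and 44.9% lower). The median log2 change of member start-site peaks was -0.55 and that of all start-site peaks -0.53. Among distal peaks 33 of 135 were called, 17 higher and 16 lower (24.4%, against 25.2% of all, 12.6% higher and 12.6% lower). The pathway genes thus shared the lower start-site accessibility that the whole NeuN+ table showed. Start-site sums of the 10 neuronal markers were also lower, at 1147 and 1071 in WT and 599.6 and 627 in SgshKO. Sums of microglial, oligodendrocyte-lineage, astrocyte, endothelial and blood myeloid markers that had NeuN+ start-site peaks (2 of 10, 5 of 10, 3 of 8, 1 of 8 and 1 of 8 genes) were lower in both SgshKO libraries too, and the part of these lists in the member results was not tested. Microglial P2ry12, Tmem119, Cx3cr1 and Csf1r had no NeuN+ start-site peak.

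The split between higher and lower NeuN+ peaks depended on the scaling, being 29 higher and 11 lower with tags in peaks, 26 and 16 with median-of-ratios scaling, 19 and 7 under quantile normalization and 26 and 17 in edgeR. Start-site calls stayed mostly lower, with 1 higher against 7, 11, 4 and 11 lower under the same alternatives. The median log2 change of all NeuN+ peaks moved from -0.23 to 0.05 with tags in peaks. DESeq2 called 5 member peaks. Without either SgshKO library limma called none, as in the whole table, with 54 and 60 member peaks at an unadjusted p under 0.05.

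The NF-kB subunits had 17 of 39 NeuN+ peaks called, 3 higher and 14 lower, against the 29.8% of all NeuN+ peaks called (10.2% higher and 19.6% lower). The split was 4 higher and 5 lower with tags in peaks, 3 and 8 with median-of-ratios scaling and in edgeR, 3 and 3 under quantile normalization, and 0 and 1 in DESeq2. Rel had 64.6 and 55.9 in WT and 26.5 and 19.1 in SgshKO in a 5′ UTR peak 178 bp after its start site, 0.378 of WT (-1.38 ± 0.20; adjusted p = 8.88e-05). Nfkb2 had 47.6 and 40.7 against 22.3 and 17.8 in its exon 14 (-1.10 ± 0.21; adjusted p = 0.000911), and its start-site peak 147 bp after the start fell by 1.48 on the log2 scale (adjusted p = 0.0121). Relb had 77.0 and 63.8 against 41.9 and 40, 0.581 of WT (-0.76 ± 0.16; adjusted p = 0.00224). Nfkb1 had a log2 change of -0.66 at its start site (adjusted p = 0.0281), a call lost in 9 of 13 alternatives including the 3 other scalings, edgeR and DESeq2. Under quantile normalization the start-site calls of Relb and Nfkb2 were lost too. Rela had a log2 change of -0.22 that did not pass (adjusted p = 0.35). A peak 21787 bp before Nfkb1 was higher, with 4.53 and 3.95 in WT and 14.0 and 14.6 in SgshKO, 3.37-fold (1.55 ± 0.32; adjusted p = 0.00196).

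Upstream of the subunits, 6 of 24 NeuN+ receptor peaks were called (3 higher and 3 lower), all distal, such as a higher peak 17632 bp after the start site of Tlr5 with 2.27 and 5.65 in WT and 13.3 and 8.89 in SgshKO (1.35 ± 0.39; adjusted p = 0.0155). Adaptors had 5 of 19 called (1 higher and 4 lower) and kinases and ligases 15 of 56 (7 higher and 8 lower). Irak2 had 94.0 and 94.3 in WT and 52.4 and 49.5 in SgshKO at its start site, 0.541 of WT (-0.87 ± 0.14; adjusted p = 0.000227), a call lost under quantile normalization. Chuk, the IKK-alpha kinase, had 77.0 and 62.1 against 32.1 and 37.5 (-0.98 ± 0.17; adjusted p = 0.000537). Higher distal peaks included one 51939 bp from Tab2 (28.9 and 22.03 against 47.5 and 55.9, 2.03-fold; adjusted p = 0.00127) and one in intron 1 of Irak3 (13.0 and 13.6 against 32.8 and 29.2, 2.33-fold; adjusted p = 0.00141).

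Ticam1 had a higher peak at its 3′ end in NeuN+ nuclei, with 22.1 and 26.0 in WT and 42.6 and 36.2 in SgshKO, 1.64-fold (0.69 ± 0.20; adjusted p = 0.0168), and a log2 change of -0.48 at its start site that did not pass (adjusted p = 0.0741). A peak 477092 bp before Map3k7 was also higher (1.13 and 2.82 against 6.98 and 6.35; adjusted p = 0.0167). The start-site peak of Tab1 had a log2 change of -0.46 (adjusted p = 0.0278), a call lost in 9 of 13 alternatives including the 3 other scalings, edgeR and DESeq2, and that of Tab2 changed by -0.20 without passing (adjusted p = 0.301).

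Of the inhibitors, 9 of 31 NeuN+ peaks were called, 4 higher and 5 lower (29.0%, against 29.8% of all NeuN+ peaks). Tnfaip3 had 67.4 and 63.2 in WT and 32.1 and 32.4 in SgshKO at its start site, 0.494 of WT (adjusted p = 0.000333), while a peak 52381 bp before it was higher, with 3.97 and 3.39 against 15.4 and 13.3 (1.71 ± 0.33; adjusted p = 0.00109). Tnip1 had no peak within 1000 bp of its start, and its 5′ UTR peak 6777 bp downstream had 97.4 and 97.1 against 49.6 and 68.6 (-0.73 ± 0.15; adjusted p = 0.00218), also lost under quantile normalization. Nfkbiz had 32.9 and 33.3 against 18.1 and 15.2 (-0.95 ± 0.22; adjusted p = 0.00419). Nfkbia fell by 0.83 at its start site (adjusted p = 0.00794), a call lost with tags in peaks and under quantile normalization, and a peak 29936 bp after it was higher, with 6.80 and 7.91 against 16.1 and 16.5 (1.05 ± 0.29; adjusted p = 0.012). The exception among start-site peaks was Nfkbib, with 71.9 and 79.1 in WT and 104 and 100.3 in SgshKO, 1.35-fold (0.43 ± 0.13; adjusted p = 0.0175). No inflammasome peak among 6 was called by limma (2 at an unadjusted p under 0.05), edgeR or DESeq2.

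In Olig2+ nuclei 24 of 141 member peaks passed, 10 higher and 14 lower (17.0%, against 19.8% of all Olig2+ peaks, 8.17% higher and 11.7% lower). The median log2 change was -0.01 over members and -0.07 over all peaks. Among start-site peaks 11 of 38 were called, 6 higher and 5 lower (28.9%, against 20.3% of all, 12.7% higher and 7.56% lower). Among distal peaks 13 of 103 were called, 4 higher and 9 lower (12.6%, against 19.7% of all, 6.7% higher and 13.0% lower). The split was 16 higher and 11 lower with median-of-ratios scaling, 17 and 13 in edgeR and 12 and 10 under quantile normalization. DESeq2 called 3, but it gave an adjusted p for only 73 of the 141 member peaks. Without WT replicate 1 or 2, 6 and 5 member peaks were called. Start-site sums of the oligodendrocyte-lineage markers were lower in SgshKO, at 3124 and 3091 in WT and 2681 and 2705 in SgshKO. Microglial markers had start-site peaks at 3 of 10 genes there, summing to 256 and 260.3 in WT against 287 and 299.8 in SgshKO. Neuronal markers with a start-site peak there (5 of 10) summed to 379 and 415 against 454 and 435, and the endothelial marker with one (1 of 8) had 3.63 and 2.56 against 8.61 and 10.6. The part of these lists in the member results was not tested.

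The inhibitors had 7 of 28 Olig2+ peaks called, 2 higher and 5 lower, against 19.8% of all Olig2+ peaks (8.17% higher and 11.7% lower). The lower count was 3 under quantile normalization and 1 in DESeq2. A peak in intron 1 of Nfkbia had 205 and 204 in WT and 117 and 154 in SgshKO, 0.663 of WT (-0.60 ± 0.11; adjusted p = 0.000253), and the Nfkbia start-site peak 43 bp downstream had 143 and 131 against 95.9 and 106 (-0.43; adjusted p = 0.0101). Nfkbib had 426 and 434 against 346 and 335, 0.791 of WT (-0.34 ± 0.07; adjusted p = 0.000777), the opposite direction to its microglial peak, which it overlaps only in part. A distal peak 19158 bp from Nfkbia was higher (19.2 and 19.4 against 33.8 and 31.9; adjusted p = 0.019), as was the Nfkbie start-site peak (29.1 and 23.5 against 40.6 and 43.9; adjusted p = 0.0191). Tnfaip3 had a log2 change of 0.02 at its start site (adjusted p = 0.967).

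Of the subunits 4 of 24 Olig2+ peaks were called, 3 higher and 1 lower (16.7%, against 19.8% of all Olig2+ peaks). Relb had 21.3 and 24.5 in WT and 43.6 and 37.9 in SgshKO 95 bp before its start site, 1.78-fold (0.81 ± 0.21; adjusted p = 0.007), and 85.6 and 75.7 against 110.1 and 118 at 545 bp after it, 1.41-fold (0.49; adjusted p = 0.00733). Called Relb peaks near its start site were thus higher in SgshKO in microglia and Olig2+ nuclei and lower in NeuN+ nuclei, but not at the same place. The Olig2+ peak at 545 bp and the NeuN+ peak at 522 bp share only 64 bp with the called microglial peak. Nuclei peaks sharing more with it were not called (145 bp and 0.48 in Olig2+, 140 bp and -0.27 in NeuN+). Nuclei peaks 95 and 88 bp before the start site overlap a microglial peak 83 bp before it, which was not called (0.37). The start-site changes of Rela (0.16; adjusted p = 0.494), Nfkb1 (0.64; adjusted p = 0.0758) and Nfkb2 (-0.34) did not pass.

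Kinases and ligases had 8 of 47 Olig2+ peaks called, 3 higher and 5 lower, adaptors 4 of 28, 2 in each direction, and receptors 1 of 9. These shares were 17.0, 14.3 and 11.1%, against 19.8% of all Olig2+ peaks. The 3 IKK and 2 inflammasome peaks were called by none of limma, edgeR and DESeq2 (0 and 1 at an unadjusted p under 0.05 in limma). DESeq2 did not give every Olig2+ member peak an adjusted p. Irak2 had 128 and 120.2 in WT and 178 and 156 in SgshKO at its start site, 1.34-fold (0.42 ± 0.11; adjusted p = 0.00674). Tab1 had 54.5 and 60.9 against 82.4 and 87.7 (0.55; adjusted p = 0.00812), and Map3k7 38.9 and 40.4 against 47.3 and 68.5 (0.51; adjusted p = 0.0467). Irak4, whose start-site peak lies within 1 kb of the start of Pus7l, had 110.0 and 126 against 76.2 and 99.7 (-0.43; adjusted p = 0.0245). Ticam1 had 222 and 213 against 185 and 154 at its start site, 0.78 of WT (-0.36 ± 0.10; adjusted p = 0.01), and a weak distal peak 8809 bp away was higher (2.59 and 3.58 against 9.22 and 9.31; adjusted p = 0.0119).

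Among the remaining lower Olig2+ peaks, the peak 12876 bp before Traf6 had 190.3 and 195 in WT and 129 and 152 in SgshKO (-0.46 ± 0.10; adjusted p = 0.00222), and Gm34041 starts within 1 kb of it. A peak 189445 bp from Map3k7 had 17.6 and 16.4 against 9.22 and 2.66 (-1.56; adjusted p = 0.00357), and a peak 6412 bp from the start of Tab2 had 7.26 and 8.18 against 2.46 and 1.33 (-1.62; adjusted p = 0.0057). The receptor peak lay 46249 bp before Tlr5, with 53.4 and 58.3 against 36.9 and 39.9 (-0.53; adjusted p = 0.0308).

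**Figure D4:**
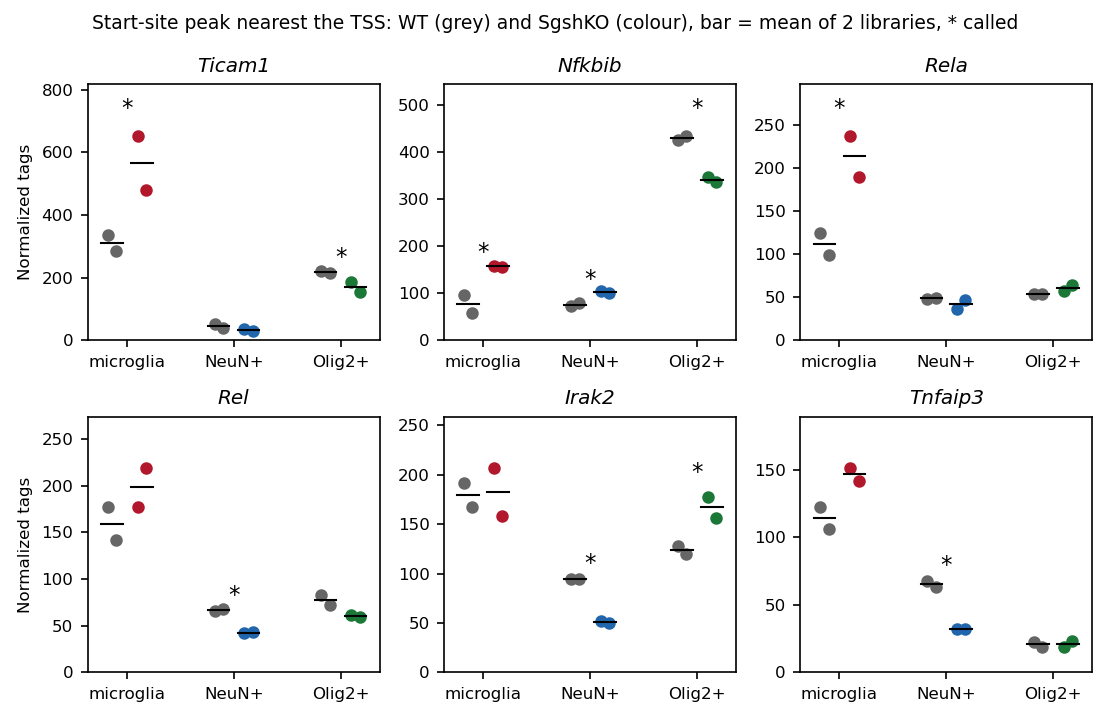
Normalized tags at the start-site peak nearest the start of Ticam1, Nfkbib, Rela, Rel, Irak2 and Tnfaip3 in every library of the 3 sorts, WT in grey and SgshKO in the colour of the sort; bars are means of 2 libraries, an asterisk marks a called peak, the 6 genes were chosen after their values were seen, and the Nfkbib peaks of microglia and Olig2+ nuclei overlap only in part. Ticam1 is higher in SgshKO microglia (337 and 285 against 654 and 481) and lower in SgshKO Olig2+ nuclei (222 and 213 against 185 and 154).

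Whether a genotype effect differed between sorts was tested at 36 microglial member peaks, of 21 genes. Each matched 1 peak of NeuN+ and 1 of Olig2+ nuclei by position. The matched nuclei peaks can carry the name of a gene that is not a member, as at the Nfkb2 peak 29 bp before its start site. The effect in microglia differed from that in NeuN+ nuclei at 14 of the 36, or 38.9%, against 42.5% of all 16761 matched peaks. At 13 of the 14 the change in microglia was the more positive, and at 13 of the 14 the changes had opposite signs. These directions were not counted over all matched peaks. Over all start-site peaks the median log2 change was 0.03 in microglia and -0.53 in NeuN+ nuclei. With tags in peaks the 14 became 7, with 4 more positive in microglia and 3 less, and under quantile normalization 6, with 1 and 5. Median-of-ratios scaling gave 10, with 3 and 7. The effect in microglia differed from that in Olig2+ nuclei at 6 of the 36, or 16.7%, against 21.6% of all matched peaks. The change in microglia was more positive at 4 of them and less at 2. That split was 2 and 4 with tags in peaks and with median-of-ratios scaling, and 1 and 4 under quantile normalization.

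Ticam1 differed in both tests. Its start-site peak had a log2 change of 0.85 in microglia, -0.48 in NeuN+ nuclei (difference 1.33; adjusted p = 0.000111) and -0.36 in Olig2+ nuclei (difference 1.21; adjusted p = 0.000875), and both calls were lost under quantile normalization (adjusted p = 0.886 and 0.124). The Nfkb2 start-site peak changed by 0.92 in microglia and -0.98 in NeuN+ nuclei (difference 1.90; adjusted p = 0.000105), and this call was kept under all 18 alternatives. The inhibitors Nfkbiz (0.51 and -0.95; adjusted p = 9.83e-05) and Nfkbie (0.86 and -0.39; adjusted p = 0.00284), the feedback gene Tnip1 at its 5′ UTR peak (0.54 and -0.73; adjusted p = 0.000128) and Relb (0.37 and -0.84; adjusted p = 0.00876) differed between microglia and NeuN+ nuclei in the same direction. Of these, Nfkbiz lost its call under quantile normalization, Tnip1 there and with median-of-ratios scaling, and Nfkbie and Relb under all 3 other scalings. The intron 1 peak of Tlr5 changed by -1.57 in microglia and -0.02 in Olig2+ nuclei (difference -1.55; adjusted p = 0.0147). The nuclei peaks matched to this Nfkb2 start-site peak were not named for a member. Of the 21 peaks called in microglia, 5 overlapped a member peak of the NeuN+ table and 6 one of the Olig2+ table. Most of the 21 were not among the 36 matched peaks, so no difference between sorts could be tested there.

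**Figure D5:**
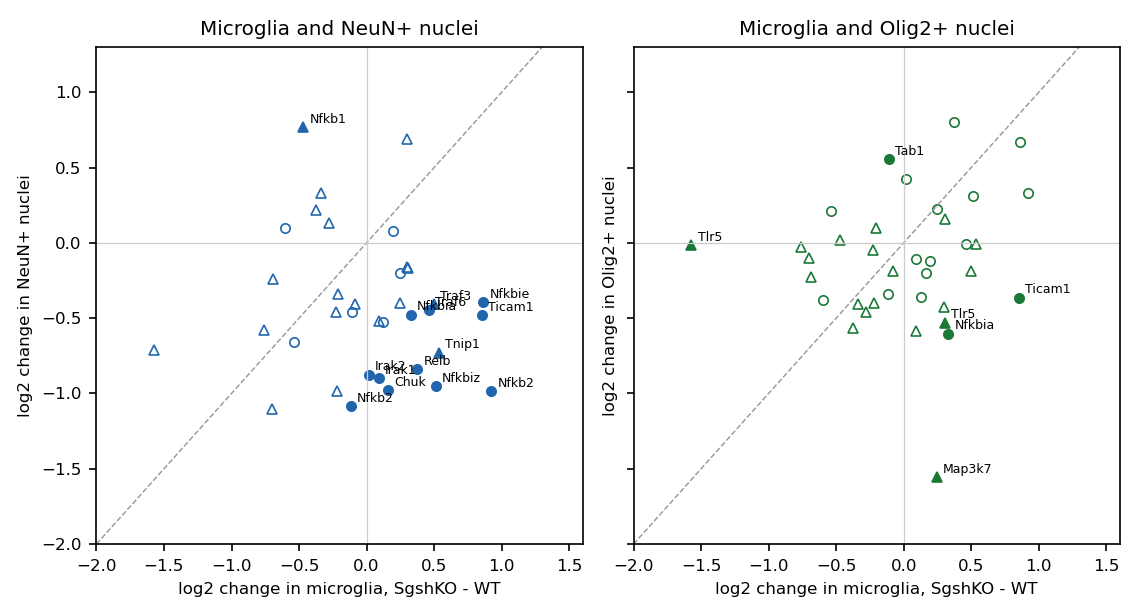
Log2 change in microglia (x axis) against log2 change in NeuN+ or Olig2+ nuclei (y axis) at the 36 microglial member peaks matched by position in all 3 sorts. Circles are start-site and triangles distal peaks, and filled points are peaks whose effect differed between the sorts. The filled Ticam1 point lies at 0.85 on the x axis and below 0 on the y axis in both panels.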

How the data were processed

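ATAC-seq was deposited as 1 annotated peak table per sort. Per the submitters' processing notes, reads were handled with Bowtie2 and HOMER on mm10; the sources used here give no versions, read shifting or duplicate removal. Per the file headers, peaks were merged over WT and SgshKO, and the deposited signal is the tags per peak scaled by the authors to 10000000 tags per library. Multiplying by the header totals returned whole reads for 100% of values (within 0.01).

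The 37 members, the other lists and the tests were chosen with earlier results of these data known. Each sort was tested alone with limma 3.58.1 (trend, two-sided, R 4.3.3) on log2(tags + 1), so fold changes of weak peaks are understated there; printed folds are ratios of group means. Adjustment was over every peak of the table, and calls needed an adjusted p under 0.05. Effects were compared between sorts by limma interaction over 12 libraries, at peaks overlapping reciprocally by 50%. In microglia every called peak, the peak nearest each start site and the 3 strongest distal peaks are named; in nuclei, up to 8 called peaks per direction, 1 per gene, and start-site peaks of genes called in microglia.

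Alternatives were pseudocounts of 0.5 and 5, dropping the lowest 25% of peaks, 3 other scalings, recovered reads tested with edgeR 4.0.16 and with DESeq2 1.42.0, a replicate block, a threshold of 0.1, start-site windows of 500 and 2000 bp, and leaving out each library. On simulated data limma recovered 46, 43 and 76% of 2-fold changes in microglia, NeuN+ and Olig2+ nuclei. These changes were placed only in peaks at or above the median WT level. The labels do not say whether replicate numbers pair samples. Over peaks, the deviations between replicates correlated little between genotypes (0.0420, 0.00361 and 0.00069). Such a correlation cannot see a shift shared by all peaks of a library. Markers and genes induced by handling stress came from fixed lists.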

Additional observations from a re-analysis of the deposited data

Results flagged for a closer look

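The genotype effect, SgshKO minus WT on the log2 scale, was compared between sorts by limma interaction at 36 microglial member peaks matched by position, and 20 comparisons gave an adjusted p under 0.05. Each value is the effect in microglia minus the effect in the nuclei.

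Against NeuN+ nuclei, the subunit genes differed by 1.90 at the Nfkb2 start-site peak, by 0.97 at the Nfkb2 peak 144 bp before the start of another transcript, by 1.21 at Relb, and by -1.24 at a distal peak of Nfkb1, where the change was -0.47 in microglia and 0.77 in NeuN+ nuclei. The inhibitors and feedback genes differed by 1.46 at Nfkbiz, 1.26 at Tnip1, 1.26 at Nfkbie and 0.80 at Nfkbia. The adaptor Ticam1 differed by 1.33. Among kinases and ligases the differences were 0.89 at Irak2, 0.91 at Traf6, 0.99 at Irak1 and 0.90 at Traf3, and the IKK gene Chuk differed by 1.14. These 5 calls were lost with tags in peaks and with median-of-ratios scaling, and under quantile normalization Irak2 and Traf6 were at -0.18 and -0.11. The smaller Nfkb2 difference and that of Nfkbia were lost under those scalings too, with values of -0.066 and -0.11 under quantile normalization. At Irak2, Irak1 and Chuk the change in microglia was near 0 (0.01, 0.09 and 0.16), and the NeuN+ peak carried the difference (-0.87, -0.90 and -0.98).

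Against Olig2+ nuclei, Ticam1 differed by 1.21, Nfkbia by 0.93 and a distal peak of Map3k7 by 1.80. Tlr5 differed by -1.55 at its intron 1 peak and by 0.84 at a peak 46198 bp upstream, so its peaks went different ways. Tab1 differed by -0.66, with an adjusted p of 0.0497, and lost its call in 12 of 18 alternatives. The calls of Nfkbia and of the upstream Tlr5 peak were each lost in 8 of 18, among them the 3 other scalings.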

How the results depend on the processing

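Of 21 called member peaks in microglia, scaling to tags in peaks gave 43, median-of-ratios scaling 39, quantile normalization 38, edgeR 45, the replicate block 45 and a threshold of 0.1 34, and leaving out a library gave 0 to 64. Of 53 in NeuN+ nuclei, quantile normalization gave 26 and DESeq2 5, and leaving out a library 0 to 18. Of 24 in Olig2+ nuclei, DESeq2 gave 3 and a threshold of 0.1 39, and leaving out a library 5 to 26. Of 14 differences against NeuN+ nuclei, tags in peaks gave 7 and quantile normalization 6, and leaving out a library 10 to 15; of 6 against Olig2+ nuclei, leaving out a library gave 1 to 9. The replicate block gave 57, 24, 14 and 6 for these last 4 counts. The labels do not say whether replicate numbers pair the samples, so whether the replicate block matches the study's design is not known.

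The results that changed sign were mostly start-site peaks that had not passed the test, but included 4 called differences between microglia and NeuN+ nuclei; the cause was not tested. In microglia, quantile normalization gave log2 changes of -0.21 at the distal Tnfaip3 peak, -0.0053 at Tab2, -0.0098 at Rel, -0.21 at Ticam2, -0.20 at the distal Rela peak, -0.10 at Tlr2, -0.20 at Tlr4, 0.0052 at Tlr6, -0.31 at Irak2, -0.084 at Ikbkb, -0.19 at Tlr9, -0.055 at Myd88 and -0.041 at Irak1. Tags in peaks gave -0.15 at Ticam2, -0.042 at Chuk, -0.037 at Tlr2, -0.19 at Irak2, -0.081 at Ikbkb, -0.080 at Tlr3, -0.085 at Tlr9, -0.087 at Myd88 and -0.12 at Irak1. Cd14 was at 0.032 with median-of-ratios scaling, 0.025 in edgeR and 0.031 in DESeq2, and Tlr6 at 0.013 in DESeq2. In NeuN+ nuclei Tab2 was at 0.091, 0.010, 0.25, 0.014 and 0.010 with tags in peaks, median-of-ratios scaling, quantile normalization, edgeR and DESeq2, and Rela at 0.070, 0.10, 0.012 and 0.0056 with tags in peaks, quantile normalization, edgeR and DESeq2. Under quantile normalization the differences between microglia and NeuN+ nuclei were -0.11 at Nfkbia, -0.066 at the Nfkb2 peak with a reported difference of 0.97, -0.11 at Traf6 and -0.18 at Irak2.

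Leaving out a library gave ranges on both sides of 0 for microglial start-site peaks of Tab1 (-0.26 to 0.048), Nfkbiz (-0.36 to 0.071), Cd14 (-0.22 to 0.17), Ticam2 (-0.10 to 0.22), Chuk (-0.22 to 0.55), Tlr4 (-0.014 to 0.52), Tlr6 (-0.14 to 0.028), Irak2 (-0.18 to 0.21), Tlr3 (-0.56 to 0.80), Tlr9 (-0.052 to 0.29) and Myd88 (-0.33 to 0.56), and for Tnfaip3 in Olig2+ nuclei (-0.12 to 0.16). With 1 library left in a group, its spread is assumed to be that of the other group. Start-site windows of 500 and 2000 bp gave 5 and 6 called start-site peaks in microglia. In microglia the median peak held 27 to 39 reads. Data were simulated with a common spread and with changes only in peaks at or above the median WT level. Of these, 46% of 2-fold and 97% of 4-fold changes were recovered, and recovery at weaker peaks was not tested.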
